A study of Homo sapiens with 4 samples.

Results

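The clustered protocadherins are cell adhesion proteins encoded in 3 tandem gene arrays, alpha, beta and gamma, on the long arm of chromosome 5. Their expression was examined in 4 samples of the human myelodysplastic cell line MDS-L. The members were chosen by name and not by level: every non-control probe whose gene name begins with PCDHA, PCDHB or PCDHG was taken. This gave 58 of the 58185 probes analysed. They carry 50 of the 43311 gene names on the array, of which 15 genes with 16 probes lie in the alpha cluster, 18 genes with 19 probes in the beta cluster and 17 genes with 23 probes in the gamma cluster. All 50 names match RefSeq genes. RefSeq lists 59 genes with such names, and the other 9 have no probe under their own name on this array.

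MDS-L cells, an established line from myelodysplastic syndrome, and MDS-L/CDA cells, the same line after transduction with the cytidine deaminase gene CDA, were each exposed for 72 h to vehicle (0.1% DMSO) or to 5-azacytidine (AZA) at 1 μM. The 4 samples are therefore MDS-L vehicle, MDS-L AZA, MDS-L/CDA vehicle and MDS-L/CDA AZA, with 1 single-colour array each, all on 1 slide. AZA is a cytidine analog that is incorporated into nucleic acids and traps DNA methyltransferases, and cytidine deaminase inactivates it. The study made MDS-L/CDA as an AZA-resistant line, and whether it is a single clone is not given in the sources used here. MDS-L is known to have lost material from the long arm of chromosome 5, where the clusters lie, and gene copy number was not measured here. The treatment field of the labels gives the opposite treatment for the arrays called MDS-L AZA and MDS-L/CDA vehicle here; their titles, source names and descriptions were followed. The series text gives the AZA dose as 1 mM, and the sample source names as 1 μM. Single arrays give neither a replicate error nor a test, so every ratio below compares a pair of arrays. Where 4 values of a probe are given without names, their order is MDS-L vehicle, MDS-L AZA, MDS-L/CDA vehicle, MDS-L/CDA AZA.

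In the alpha and gamma clusters a row of variable exons, each with its own promoter, is spliced to a shared set of constant exons at the 3′ end of the cluster, whereas each beta gene is a single coding exon. Neurons are known to switch on a few variable promoters by chance and a few C-type genes more generally, which gives each cell its own adhesive identity. The choice depends on CTCF and cohesin, which loop an active promoter to distant enhancers, and the promoters that are not chosen are typically methylated. Blood cells are not known as a main site of expression.

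Most of the variable promoters share a short conserved element with the core CGCT, which lies within a CTCF site. The stretch of 100 bases before the RefSeq start is shown for 5 genes (GRCh38.p14, chromosome 5, plus strand), because these are the genes on which the measurements below turn. PCDHB13 (chr5:141213819-141213918) was the beta gene with a measurable signal, and PCDHB12 (chr5:141208619-141208718) and PCDHB14 (chr5:141223243-141223342) flank it. PCDHGA7 (chr5:141382642-141382741) had the weaker detection flag on all 4 arrays, and PCDHAC1 (chr5:140926199-140926298) is an undetected C-type gene. Capitals mark GGCGCT, which contains the core, in the 3 beta genes, and the core CGCT alone in the others.
PCDHB12: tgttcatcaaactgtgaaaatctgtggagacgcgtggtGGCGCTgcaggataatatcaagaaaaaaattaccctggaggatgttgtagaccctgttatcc
PCDHB13: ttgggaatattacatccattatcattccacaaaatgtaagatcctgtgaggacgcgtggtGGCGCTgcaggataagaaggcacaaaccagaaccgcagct
PCDHB14: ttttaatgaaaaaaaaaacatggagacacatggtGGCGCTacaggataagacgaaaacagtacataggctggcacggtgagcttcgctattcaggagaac
PCDHGA7: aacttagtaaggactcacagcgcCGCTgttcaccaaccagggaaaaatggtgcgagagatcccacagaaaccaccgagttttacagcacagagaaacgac
PCDHAC1: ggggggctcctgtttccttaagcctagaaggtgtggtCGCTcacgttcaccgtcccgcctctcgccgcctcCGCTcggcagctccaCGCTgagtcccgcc

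The 3 beta promoters carry the same 6 letters, and a run of further letters on either side is shared between PCDHB12 and PCDHB13. RefSeq promoters, here the 250 bases before and 50 after each start, were at hand for 47 genes of the clusters, 40 of them among the 50 genes measured. The core CGCT stood on the sense strand of the last 100 bases in 44 of 47 cluster promoters (93.6%) and in 28.7% of all 35116 promoters in the table. GGCGCT, which was picked after the sequences were seen, stood in that window in 12 of 14 beta promoters (85.7%) and in 2 of 7 gamma B promoters, in none of the alpha or gamma A promoters, and in 5.1% of all promoters. Counted on both strands over all 300 bases, CGCT was present in 97.9% of cluster promoters and 70.0% of all promoters, and GGCGCT in 46.8% and 21.7%. A match of letters is a description and not a bound site.

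The cluster promoters held few CpG dinucleotides, the pairs that are methylated. The median was 7 per 300 bases over the 47 cluster promoters and 14 over all promoters. By subfamily the median was 7 for alpha, 7.5 for beta, 5 for gamma A and 11 for gamma B. The C-type genes stood apart, with medians of 21 for the 2 alpha and 20.5 for the 2 gamma promoters in the table. Methylation was not measured in these samples.

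**Figure D1:**
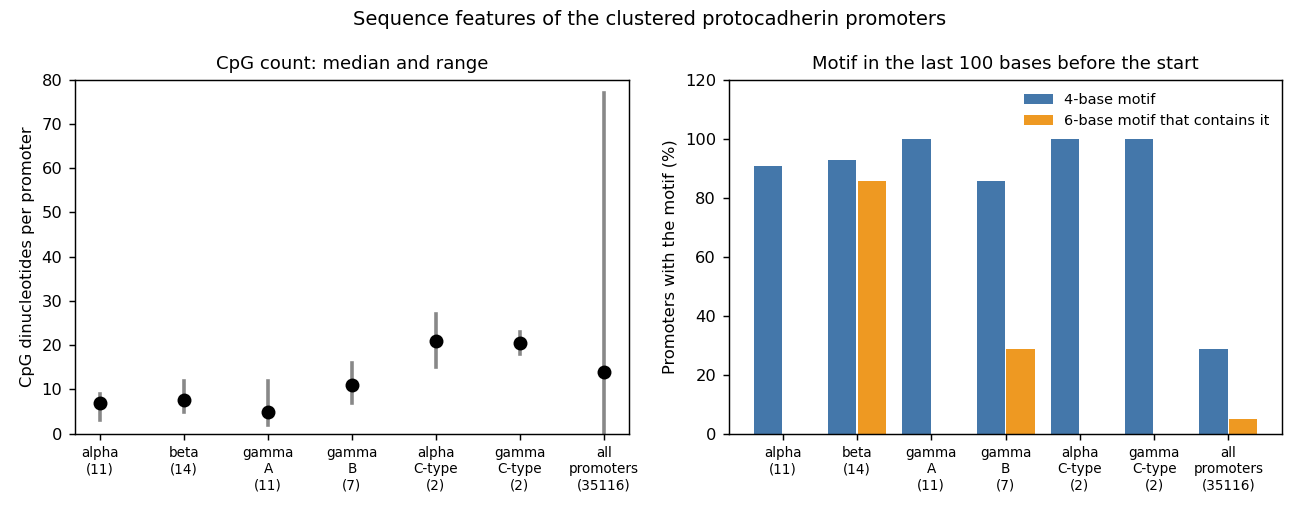
Left, number of CpG dinucleotides in 300-base RefSeq promoters, with the median as a dot and the lowest to highest value as a line; right, percentage of promoters with CGCT (4-base motif) or GGCGCT (6-base motif) on the sense strand in the last 100 bases before the start. The number of promoters stands under each subfamily; medians run from 5 in gamma A to 21 in alpha C-type, and GGCGCT is most common in the beta promoters among the sets shown.

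Clustered protocadherin transcripts were almost entirely below detection in all 4 samples, and no member that was undetected in vehicle became detected with AZA. The Agilent software marks a spot as well above background when it exceeds the local background by a set margin, and this flag was taken as detection. Only 2 of 58 probes (3.45%) had it, both on all 4 arrays, and the other 56 probes had it on none. Over all probes the share with the flag on at least 1 array was 38.7%, and on single arrays it was 32.6 to 36.5%. The lowest signal with the flag was 9.98 to 11.1, in the scanner's linear units.

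The first detected probe reads PCDHB13, a beta protocadherin, on the plus strand (hg19 chr5:140595978-140596037). Its sequence, shown because it is the measurement closest to a single clustered protocadherin gene here, was
PCDHB13 probe: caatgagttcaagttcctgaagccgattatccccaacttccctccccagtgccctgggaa
and 1 of its 3 reading frames on that strand has no stop codon. In MDS-L cells its signal was 27.5 with vehicle and 37.3 with AZA, and MDS-L/CDA cells gave 33.7 with vehicle and 26.7 with AZA. It stood 2.42 to 3.70 times above the lowest signal with the detection flag on the same array, so it was low on every array. The second detected probe is listed under PCDHGA8 but names transcripts of PCDHGA2, PCDHGA4, PCDHGA8 and PCDHGA11 together and lies at the far 3′ end of the gamma cluster (hg19 chr5:140892394-140892453). It is called the shared gamma probe below and cannot be read as a single gene. MDS-L cells gave signals of 21.8 with vehicle and 22.6 with AZA, and MDS-L/CDA cells 14.8 with vehicle and 18.9 with AZA, which is 1.33 to 2.25 times the lowest signal with the flag. The separate probe for PCDHGA8 was at 2.51 to 2.67, so the probes of this gene name disagreed.

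**Figure D2:**
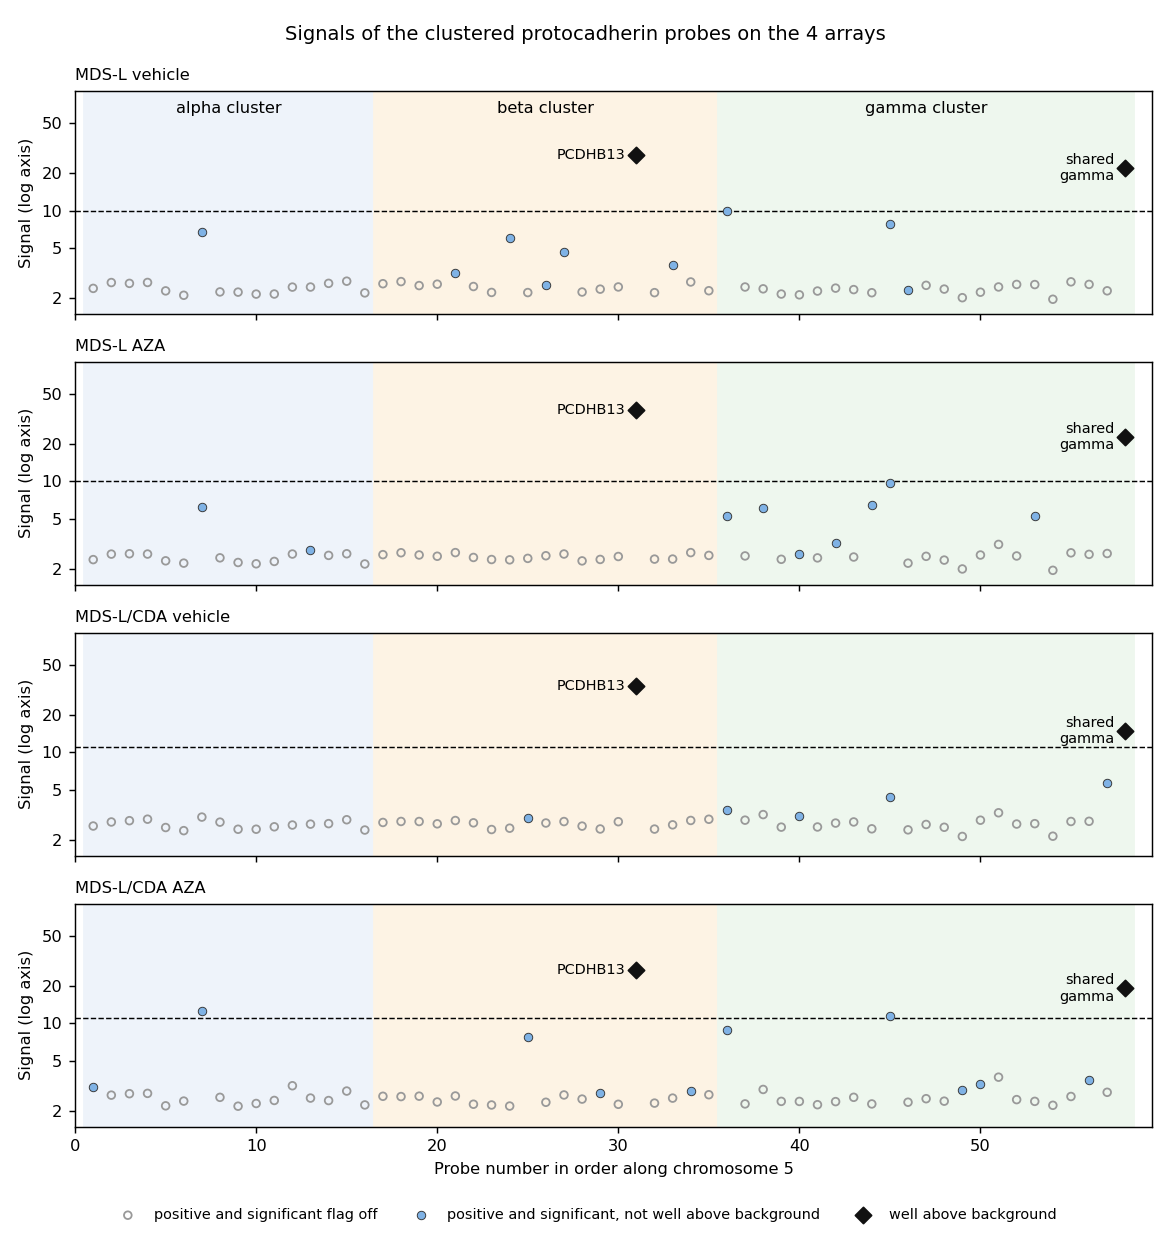
Signal (linear units on a log axis) of all 58 clustered protocadherin probes, numbered in order along chromosome 5, with 1 panel per array; diamonds are well above background, blue dots have the weaker positive and significant flag, open circles neither, and the dashed line is the level of the dimmest flagged probe of that array. PCDHB13 and the shared gamma probe are the diamonds in every panel, while the remaining 56 probes have no diamond in any panel.

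The alpha cluster had no probe above background on any array. It includes PCDHA1 to PCDHA13 and the C-type genes PCDHAC1 and PCDHAC2. The counterpart of the shared gamma probe is a probe listed under PCDHA11 that names transcripts of PCDHA9, PCDHA11, PCDHAC1 and PCDHAC2 and lies at the far 3′ end of the alpha cluster. It was at 2.20 to 2.41 on the 4 arrays, values the software put in place of a spot not distinct from its background. The shared probes of these clusters differed in detection: the gamma probe was above background on all 4 arrays and the alpha probe on none.

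Of the 18 beta genes, 17 were undetected, namely PCDHB1, PCDHB2, PCDHB4 to PCDHB12, PCDHB14 to PCDHB16 and the pseudogenes PCDHB17P, PCDHB18P and PCDHB19P. PCDHB12 and PCDHB14, which flank PCDHB13 and share its promoter motif, were at 2.26 to 2.81 and 2.22 to 2.45. In the gamma cluster the undetected genes were PCDHGA2, PCDHGA3, PCDHGA5, PCDHGA7, PCDHGA9, PCDHGA12, PCDHGB1 to PCDHGB4, PCDHGB6, PCDHGB7, the pseudogene PCDHGB8P and the C-type genes PCDHGC3, PCDHGC4 and PCDHGC5. The signals of the 56 undetected probes ran from 1.97 to 9.95 with vehicle and from 1.96 to 9.64 with AZA in MDS-L cells, and from 2.14 to 5.67 with vehicle and 2.19 to 12.6 with AZA in the MDS-L/CDA line. Their medians were 2.46, 2.56, 2.74 and 2.54. On 33 of 58 probes (56.9%) the software replaced the signal on all 4 arrays, compared with 27.0% of all probes. Replaced values hold no order, and in the main comparisons no fold change was formed between undetected signals. An alternative with a weaker flag, given below, does form such ratios.

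What the probes can read limits this. In both split clusters the 15 alpha and 21 gamma probes that name a transcript variant 2 do not list the variant 1 transcripts, and only the shared probe of each cluster lists a variant 1. In RefSeq the variant 1 transcripts join the variable exon to the constant exons, and variant 2 transcripts are short forms that end after the variable exon. Whether the variant 2 probes also match the long forms was not determined, because no genome of the array's build was used here. There were 8 probes that list transcripts of more than 1 gene, up to 4. In bulk RNA, fewer expressing cells and less RNA per cell cannot be told apart.

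**Figure D3:**
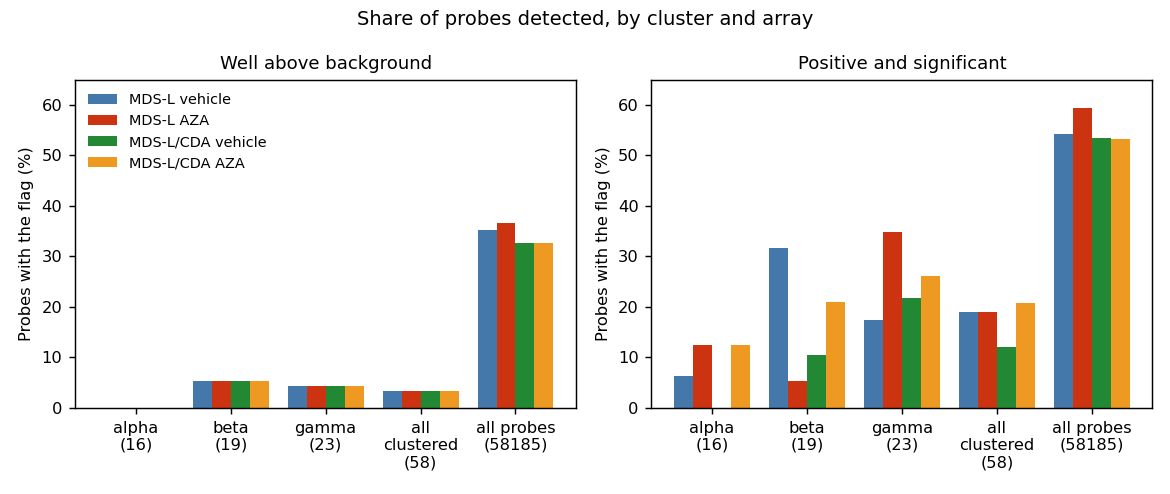
Percentage of probes with each detection flag by cluster and array, with the number of probes in brackets; bars start at 0 and have no error because each array is 1 sample. On every array the clusters are far below all probes for the well above background flag (0 to 5.26% by cluster, 32.6 to 36.5% over all probes).

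No measured member differed by a ratio of 2 with AZA in either line. In MDS-L cells, 0 of the 2 measured members were at least 2-fold higher with AZA, where 6.54% of all measured probes were, and 0 were at least 2-fold lower, where 6.15% were. In MDS-L/CDA cells the count was again 0 in each direction, against 2.48% higher and 3.2% lower over all measured probes. A measured probe is one well above background on at least 1 array of the pair, and signals were divided by the 75th percentile of their array before ratios were taken. With 2 measured members these shares allow no reading about the family.

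Scaled in this way, PCDHB13 had values of 0.524, 0.704, 0.827 and 0.716, all below the 75th percentile of the array. MDS-L vehicle was the lowest of the 4 and MDS-L/CDA vehicle the highest. With AZA its ratio was 1.34 in MDS-L cells (log2 0.43), a rise that turned to log2 -0.11 when arrays were scaled to their medians. The ratio was 0.866 in MDS-L/CDA cells (log2 -0.21), with the same sign under the 5 other ways of scaling or background correction tried. Of all measured probes, 79.4% had a lower AZA ratio in MDS-L and 30.0% in the MDS-L/CDA line.

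The shared gamma probe had scaled signals of 0.414, 0.427, 0.362 and 0.509. MDS-L vehicle and MDS-L AZA were close together, and the MDS-L/CDA arrays were the lowest and the highest. Its AZA ratio was 1.03 in MDS-L cells (log2 0.04, and -0.50 with median scaling) and 1.40 in MDS-L/CDA cells (log2 0.49, with the same sign under the 5 others). For orientation, 300 probes were printed more than once, of which 261 to 270 were well above background on each array. Over the latter, spots of 1 probe on 1 array had a median SD of 0.115 to 0.201 on the log2 scale. Over the 4 to 7 of them with a signal under 60, it was 0.140 to 0.284. From the largest of these, 0.284 over 5 probes of MDS-L/CDA AZA, 2 single spots differ by 0.40 in SD on the log2 scale. This is before any difference between cultures. The MDS-L arrays had less, 0.140 with vehicle and 0.194 with AZA, over 4 and 7 probes. From so few probes, none of these AZA ratios was sorted as above or below spot error.

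**Figure D4:**
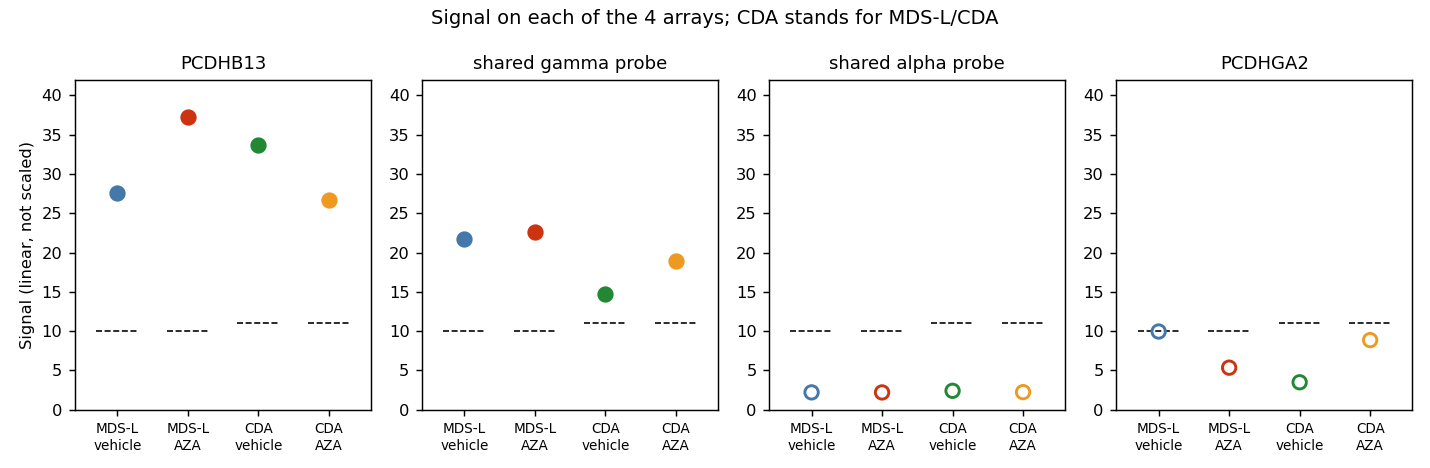
Signal in linear units, not scaled between arrays, of 4 probes on each array, with 1 dot per array; filled dots are well above background, open dots are not, and dashes give the level of the dimmest flagged probe of that array. PCDHB13 lies between 26.7 and 37.3 and the shared gamma probe between 14.8 and 22.6, whereas the shared alpha probe stays at 2.20 to 2.41 and PCDHGA2 at 3.50 to 9.95.

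Because DNA demethylation is a route by which AZA can switch genes on, probes off in vehicle were followed. In MDS-L cells 4.8% of the 37735 probes that were not well above background in vehicle were well above it with AZA, and 0 of the 56 undetected members were. In MDS-L/CDA cells the share was 2.33% of 39227 probes, and again 0 of 56 members. Probes that also rose at least 2-fold by a lower bound made up 1.66% and 0.359%. At any of these shares few or none of 56 probes would pass, so the count of 0 allows no reading about the family. The reference probes were also not matched to the members by signal.

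The lines were also compared with each other. Without AZA, 0 of 2 measured members were at least 2-fold higher in MDS-L/CDA than in MDS-L cells (2.08% of all measured probes) and 0 were lower (2.71%). PCDHB13 had a ratio of 1.58 (log2 0.66, between 0.14 and 0.66 over all of these), the largest ratio of either detected member in any comparison under the main scaling, and 93.4% of measured probes had a lower one. The shared gamma probe had a ratio of 0.874 (log2 -0.19, but 0.05 after normexp background correction). With AZA in both lines, 0 members were higher (5.62% of all measured probes) and 0 lower (5.1%). The ratio was then 1.02 for PCDHB13 (log2 0.02, and -0.48 without scaling) and 1.19 for the shared gamma probe (log2 0.25, and -0.26 without scaling).

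**Figure D5:**
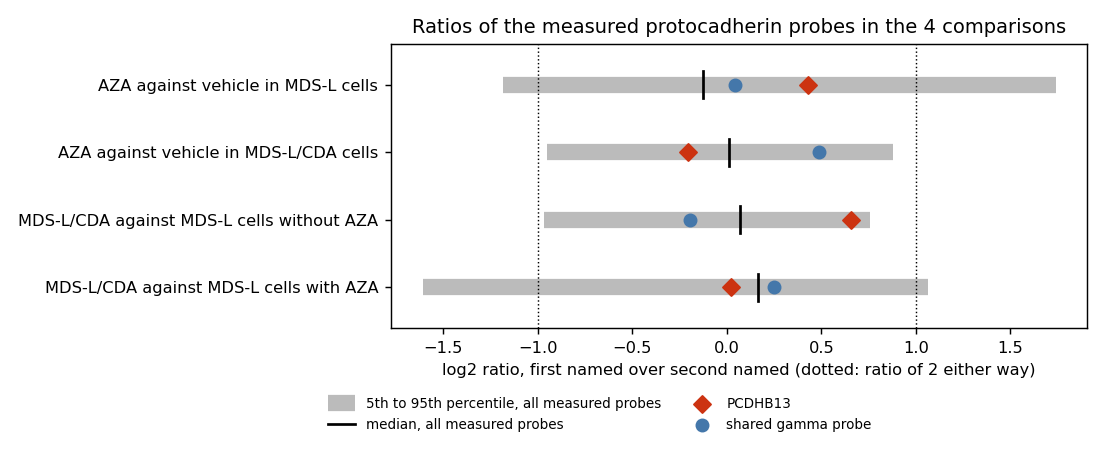
Log2 ratio of PCDHB13 (diamonds) and of the shared gamma probe (circles) in the 4 comparisons, first named over second named; grey bars span the 5th to 95th percentile of all measured probes, the black ticks are their medians and the dotted lines mark a ratio of 2. All 8 points lie between the dotted lines and within the grey bars; with another scaling or background correction the sign of 5 of the 8 changes.

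Below the detection flag, a weaker one marks a spot as positive and significant against its background. Of 58 members, 11 had it on each MDS-L array (19.0%), 7 with vehicle (12.1%) and 12 with AZA (20.7%) in the MDS-L/CDA line, whereas 53.2 to 59.4% of all probes did. In MDS-L cells the beta cluster had 6 of 19 such probes in vehicle and 1 with AZA, and the gamma cluster 4 of 23 and 8. Of the 6 beta probes, 5 had the flag on that array only. Over all probes the share was 54.3% in MDS-L vehicle and 59.4% in MDS-L AZA. A flag gained or lost this near to background is not a measured change. In MDS-L/CDA cells the count of probes with the flag went from 2 to 4 in beta and from 5 to 6 in gamma. The alpha cluster had 1, 2, 0 and 2 of 16 probes in that order. Of the 25 members with the flag on any array, 18 had it on 1 array only.

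Besides the detected pair, PCDHGA2 and 1 of the probes for PCDHGA7 had this weaker flag on all 4 arrays and PCDHA7 on 3. These genes were chosen after their values were seen. PCDHGA2, a gamma A protocadherin whose probe also lists PCDHGA1, PCDHGA3 and PCDHGA11, was at 9.95, 5.35, 3.50 and 8.86. Its signals were dimmer on the middle arrays than on the first and last. PCDHGA7 was at 7.89, 9.64, 4.41 and 11.4 in turn, and dimmest in MDS-L/CDA vehicle. Its other probe was at 2.22, 6.46, 2.46 and 2.28 and had the flag in MDS-L AZA only. PCDHA7, an alpha protocadherin, was at 6.73, 6.31, 3.05 and 12.6, and 3.05 in MDS-L/CDA vehicle did not have the flag.

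If this weaker flag stood for detection and ratios were formed from the signals as they are, 4 genes would pass a ratio of 2 with AZA in MDS-L cells. Among 17 member probes with the flag on either array, PCDHGA12, PCDHGA7 and PCDHGB1 would be higher (15.3% of all such probes were). PCDHB7 would be lower (7.65%). In MDS-L/CDA cells, among 14 such member probes, PCDHA7, PCDHB8, PCDHGA2 and PCDHGA7 would be higher (7.98%) and none lower (7.76%). PCDHGA7 is the name on both lists, through different probes. Between the lines without AZA, among 14 such member probes, PCDHGC5 would be higher in MDS-L/CDA (13.2%) and PCDHGA2 lower (4.55%). With AZA, among 18, PCDHA7, PCDHB8, PCDHGA2 and PCDHGB6 would be higher (11.6%) and none lower (9.06%). In some of these ratios the dimmer value is a replaced one, such as 2.38 for PCDHB7 in MDS-L AZA. Signals this close to background have no ratio that can be relied on.

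Genes next to the clusters were mostly detected, whereas most probes of other transcripts among the members were not. Within the stretch from the first to the last member (hg19 chr5:140168240-140892453) lie 11 probes of other genes, and 1 of them was above background. It reads TAF7, a subunit of the general transcription factor TFIID that lies between the beta and gamma clusters, at 3695, 3154, 2583 and 2057. TAF7 was thus bright on every array, between undetected protocadherin probes. An antisense transcript, lnc-SLC25A2-3, has a probe that overlaps the PCDHB13 probe by 23 bases on the other strand, and it was at 2.26 to 2.41 on the 4 arrays. The antisense transcript lnc-DIAPH1-2, whose probe ends 138 bases before the shared gamma probe, was at 2.35, 8.68, 4.46 and 6.91 and not above background. SLC25A2, a mitochondrial carrier gene between the clusters, was at 2.35, 8.71, 3.45 and 5.98, also not above background.

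Of 15 neighbouring genes on the array, chosen from the interval on either side of and between the clusters, 13 were above background on all 4 arrays, and FCHSD1 and SLC25A2 on none. In MDS-L cells 0 of the 13 were higher with AZA and 1 was lower, against 7.7% and 7.51% of all measured gene names counted by any probe. It was WDR55, a nucleolar protein, through 1 of its 3 probes (79.2 to 36.4, ratio 0.456), while its brightest probe had a ratio of 0.849, and the call ended with normexp background correction. In MDS-L/CDA cells 0 of 13 passed (3.09% higher, 4.09% lower), and also 0 of 13 between the lines without AZA (2.59% higher, 3.46% lower). With AZA, TMCO6, a membrane protein gene, was 2.07-fold higher in MDS-L/CDA than in MDS-L cells, and ARAP3, a GTPase-activating protein, was at 0.465 of its MDS-L level (6.74% higher and 6.26% lower over all gene names). The call of TMCO6 was kept with median scaling and ended with quantile normalization, no scaling, normexp and the authors' table. Taken over the measured probes of these 13 genes, the median log2 ratio with AZA was -0.31 for MDS-L and 0.08 for MDS-L/CDA. Over all measured probes it was -0.12 and 0.01.

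Transcripts of regulators that choose and silence these promoters were detected, and their proteins were not measured. All 24 listed regulators on the array were above background on at least 1 array. Among them are CTCF, cohesin subunits and loaders, DNA methyltransferases, TET dioxygenases and the silencing factors SETDB1 and TRIM28. TET3 was above background in MDS-L/CDA AZA only (13.3), so each of the other arrays had 23 of 24. In MDS-L cells 0 of 23 measured were higher with AZA and 7 were lower (7.51% of all measured gene names were). A gene counts when any of its probes passes, and the 24 regulators have 49 probes. Genes with more probes have more chances to pass, and the share over all gene names was not matched for this. SMC3, a core cohesin subunit, went from 2386 in vehicle to 603.1 with AZA (ratio 0.251), and was at 2037 and 2056 in MDS-L/CDA vehicle and AZA. DNMT3B, a de novo DNA methyltransferase, went from 5776 to 2694 (0.463), and from 4592 to 3861 in MDS-L/CDA cells (0.920). MDS-L AZA was thus the array on which both were lowest.

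UHRF1, which guides DNMT1 to newly copied DNA, went from 1326 to 604.6 (0.453), and its other probe had a ratio of 0.528. TET1, a methylcytosine dioxygenase, passed on its dimmer probe, which was not above background in MDS-L AZA (at most 0.429 of vehicle), and not on its brighter one (0.577). LRIF1, a partner of the silencing protein SMCHD1, had a ratio of 0.417. STAG2, another cohesin subunit, and TET2 each passed on 1 probe (0.407 for STAG2, and at most 0.473 for TET2, whose probe was not above background in MDS-L AZA), and neither passed on its brightest probe (0.953 and 0.950). With the authors' table or quantile normalization, 5 of these 7 genes still passed in MDS-L cells and the calls of DNMT3B and UHRF1 ended. With normexp background correction only SMC3 and DNMT3B passed, and with median scaling 13 regulators were lower.

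In MDS-L/CDA cells 1 of 24 regulators was higher with AZA, STAG2 through 1 probe (2.05), and 1 lower, SMCHD1 through 1 probe (0.498), near the 3.09% and 4.09% of all measured gene names. The brightest probes went the other way, at 0.758 for STAG2 and 1.25 for SMCHD1. The STAG2 call ended under all 5 other ways of scaling or background correction, and the SMCHD1 call with quantile normalization, normexp and the authors' table. DNMT1, the maintenance methyltransferase that AZA traps, did not pass in either line. Its signals were 444.5, 357.8, 365.1 and 371.9, with AZA ratios of 0.799 and 1.11. Between the lines without AZA, 0 of 23 were higher in MDS-L/CDA cells and 2 lower, STAG2 (0.354) and DNMT3A (0.483), a de novo methyltransferase, each on 1 probe (2.59% and 3.46% of all measured gene names). Their other measured probes had ratios above 1, with the brightest at 1.09 for STAG2 and 1.13 for DNMT3A, and both calls ended with normexp. With AZA in both, 3 of 24 were higher, SMC3 (4.84), TET1 (2.47) and DNMT3B (2.04), and 1 was lower, DNMT3A on 1 of 3 probes (0.422, the others at 1.23 and 0.940), where 6.74% and 6.26% of all measured gene names were. TET1 passed here on its brighter probe, and its dimmer one had a ratio of 1.64. The call of SMC3 held in all 5 alternatives and that of DNMT3B in none, TET1 was lost without scaling and with normexp, and DNMT3A with normexp. The comparisons share arrays, so the ratios of SMC3, TET1 and DNMT3B between the lines and within MDS-L cells rest on the same MDS-L AZA array. For TET1 the calls come from different probes, the dimmer one within MDS-L cells and the brighter one between the lines.

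The nonclustered protocadherins, whose genes lie outside the clusters and carry their own full coding sequence, were mostly undetected too. Of 12 listed, PCDH9 alone was above background, through 1 of 3 probes, at 24.4, 44.4, 6.47 and 13.4. The value in MDS-L/CDA vehicle was not above background. Its AZA ratio was 1.80 in MDS-L and at least 1.33 in MDS-L/CDA cells, which did not pass, and with AZA it was at 0.430 of the MDS-L level in MDS-L/CDA cells, which did, except with normexp.

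Among 13 genes for proteins that bind clustered protocadherin tails or cut the proteins at the membrane, 12 were above background on at least 1 array. They include PTK2 and PTK2B, kinases that the protocadherin tails bind, and ADAM10, the protease that sheds protocadherin ectodomains. In MDS-L cells 1 of the 12 measured was higher with AZA and 0 were lower, a count near the 7.7% and 7.51% of all measured gene names. It was FYN, a Src-family kinase, which was not above background in MDS-L vehicle (7.67), MDS-L/CDA vehicle (2.52) or MDS-L/CDA AZA (3.70) and stood at 92.6 in MDS-L AZA. This is at least 9.21-fold higher with AZA in MDS-L cells, and with AZA FYN was at most 0.169 of the MDS-L level in MDS-L/CDA cells, a call that ended with normexp. No other partner passed under the main scaling. CYFIP1, a subunit of the WAVE complex, was at 0.509 in MDS-L/CDA against MDS-L cells without AZA and passed as lower in all 5 alternatives, and ABI2, of the same complex, was at 0.626 and passed with median scaling and without scaling. With median scaling ABI1, ADAM10, CYFIP1 and WASF2 also passed as lower with AZA in MDS-L cells, and without scaling CYFIP1 passed as lower between the lines with AZA.

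The samples held markers of a blood progenitor line, as labelled. Of 12 haematopoietic progenitor and myeloid markers 11 were above background, and MPO was not. Of 6 stromal markers 0 were above background, of 8 neural markers 1 (RBFOX3, on 1 of 2 probes) and of 4 epithelial markers 1 (KRT18). The neural markers SNAP25, SYN1, STMN2, GAP43, NEUROD1, TUBB3 and MAP2 were undetected on every array. CDA, the gene transduced into MDS-L/CDA cells, was not above background on any array (5.53, 4.99, 4.48 and 5.42 in the order used above). Whether its single probe lies in the transduced part was not determined, so it does not check which line an array holds.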

How the data were processed

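RNA of 4 samples, 1 per combination of line and treatment, was labelled with Cy3 and hybridized to 1 array each. The authors deposited scanner output of Agilent Feature Extraction 10.7.1.1, which holds each spot's intensity on a linear scale after background subtraction, with detection flags and no scaling between arrays. They also deposited a value table of intensity with 51680 probes, including all 58 members, used as an alternative.

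Control spots and 16 probes with outlier flags were left out. Log2 intensities were averaged over spots of a probe and the array's 75th percentile (52.5, 52.9, 40.8 and 37.3) was subtracted. A probe counted as higher or lower when it was well above background on the brighter array and its ratio was at least 2. A dimmer signal not well above background was replaced by the higher of itself and the lowest signal well above background. The number of arrays limits the precision; no spot of a member was saturated. Gene names and hg19 positions are those of the array. Promoters are RefSeq windows on GRCh38.p14, and no coordinates were converted.

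The members and lists were chosen with earlier results of these data known. All detected members are named, and list genes where they passed the ratio of 2; other genes shown are marked or serve as background. A marker list is not reported here. Calls were tested on simulated data in which bright probes were changed by 3 log2 units. That test does not cover probes as dim as the detected members or ratios as small as theirs. Alternatives were quantile normalization, median scaling, no scaling, normexp background correction with offset 50, the authors' table, detection on both arrays, no lower bound, a ratio of 1.5, the brightest probe and, added after seeing the data, the weaker detection flag. Python 3.11.15, numpy 2.4.6, pandas 2.3.3, R 4.3.3 and limma 3.58.1 were used.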

Additional observations from a re-analysis of the deposited data

Results flagged for a closer look

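The AZA ratios of PCDHB13 had opposite signs in the lines. Its log2 ratio of AZA to vehicle was 0.43 for MDS-L and -0.21 for MDS-L/CDA, a difference of 0.63. The difference was not tested, since each value rests on single arrays, and the direction in MDS-L cells turned with median scaling (-0.11). Neither ratio was sorted as above or below spot error.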

How the results depend on the processing

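The count of clustered protocadherin genes at least 2-fold different was 0 in all 4 comparisons, and it stayed 0 in 35 of 40 alternatives. Detection on both arrays, no lower bound and the brightest probe could not change the count. Both measured probes were well above background on all 4 arrays, and neither passed. These alternatives are therefore no sign of stability. At a ratio of 1.5 the count was 1 gene, PCDHB13, in MDS-L/CDA against MDS-L cells without AZA. With the weaker positive and significant flag, added after seeing the data, it was 4 genes with AZA in MDS-L cells, 4 in MDS-L/CDA cells, 2 between the lines without AZA and 4 with AZA. This follows from the alternative itself, which admits signals near background. No paired analysis was possible because each condition has 1 array, and for the same reason no replicate could be left out. Scaling to array medians moved the median log2 ratio of all measured probes from -0.12 to -0.67 with AZA in MDS-L cells and from 0.07 to -0.46 between the lines without AZA; without scaling it went from 0.17 to -0.34 between the lines with AZA. The higher calls then made up 10.5%, 3.08% and 7.57% of all calls, in place of 51.5%, 43.4% and 52.4%. The cause was not tested. PCDHB13 and the shared gamma probe moved with these shifts. Detection limits the rest: 56 of 58 members had no measured level.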
